A study of Mus musculus with 12 samples.

Results

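The 6 vehicle-treated mice of the study form its allogeneic gut baseline, and they are described here on their own. They were chosen by sample title alone and make up 6 of the 12 arrays. The recipients were wild-type BALB/c mice that had received total body irradiation and then bone marrow and T cells from a C57BL/6N donor, a transplant across a full mismatch of the major histocompatibility complex. Each mouse was given 200 µl of the vehicle, which is aqua ad iniectabilia (water for injection), into the peritoneum every day, and the small intestine was taken on day 14 after allo-HCT (allogeneic haematopoietic cell transplantation). Total RNA of each mouse was hybridised to 1 Affymetrix gene array, and the 6 arrays are called replicates 1 to 6; the first 4 carry the sample numbers 57 to 60 and the other 2 much higher numbers. Nothing in the labels gives the age or sex of the mice, the segment of gut or the cage. All 6 mice share the irradiation, the graft and the injections, and mice without a transplant or with a syngeneic graft are not analysed here, so the values describe the transplanted gut and no change caused by transplantation.

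In acute graft-versus-host disease, donor T cells attack the skin, liver and gut of the recipient, and in the small intestine the crypt base with its stem cells and Paneth cells is a known target. The healthy small intestine is lined by absorptive enterocytes, mucus-making goblet cells, antimicrobial Paneth cells, hormone-making enteroendocrine cells and chemosensory tuft cells, over a lamina propria of plasma cells, T cells, macrophages and fibroblasts and an outer coat of smooth muscle. Attached mesentery contains fat. Tissue RNA pools all of these, so fewer cells of a type and less RNA per cell cannot be told apart in any value below.

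The deposited values are on a log2 scale, on which 1 unit is a doubling of brightness. Of 23991 probe sets (groups of probes read as 1 value) 21557 named 1 gene, and these are the ones described. Probe sets differ in how brightly they respond, so values were compared between mice. Where a probe set is placed against the background or among the brightest 10%, this describes its signal on the array and does not order genes by their amount of transcript. That background was set by 1379 probe sets for olfactory and vomeronasal receptors, which serve smell. The median of their vehicle means was 3.22, and 95% lay under 5.22, which is called the background level here. By this measure 13807 of 21557 probe sets (64.0%) were above background. Vehicle means ran from 2.17 to 13.57 with a median of 6.02.

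The arrays carried the RNA of small intestine. All 29 measured enterocyte genes were above background and 25 of them were among the brightest 10% of probe sets. Anpep, the brush border aminopeptidase N, had the brightest probe set of all at 13.57 ± 0.03 (SD, n = 6), and Vil1 (villin, which bundles the actin of microvilli) stood at 12.23 ± 0.07 and Sis (sucrase-isomaltase) at 12.21 ± 0.10. The other probe sets among the 12 brightest included Fabp2 (fatty acid binding), Muc13 (a membrane mucin), Ceacam1 (an adhesion molecule), Apob (chylomicron assembly), Lypd8 (a protein that keeps bacteria off the epithelium) and B2m (the light chain of MHC class I). One description label names CXCL12-abundant reticular cells, a stromal cell of bone marrow. Of 13 measured genes of that cell type 11 were above background, against 64.0% of all single-gene probe sets, and none was among the brightest 10%. Their levels ran from 4.50 to 8.45 with a median of 6.02. Lepr, the receptor that marks those cells, stood at 6.64 ± 0.24. The lowest, the transcription factor Foxc1, was below background at 4.50 ± 0.20.

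Genes of both ends of the small intestine were detected, 10 of 11 distal and 13 of 14 proximal genes being above background. The signals do not order the segments, since different probe sets read them. Fabp6, the ileal bile acid binding protein, stood at 12.99 ± 0.20, Slc10a2, the bile acid importer of the ileal brush border, at 11.08 ± 0.14 and Cubn, a vitamin B12 receptor subunit, at 12.04 (range 0.39). Among proximal genes Fabp1 stood at 5.53 ± 0.70, the lactase gene Lct at 5.34 ± 0.36 and Trpv6, a calcium channel, was below background at 5.06. S100g, a proximal calcium binding protein, stood at 11.79 ± 0.33. Genes of the exocrine pancreas were near background: 5 of 15 passed it, none among the brightest 10%.

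Resident cell classes of the gut were detected, and genes of neutrophils and mast cells were mostly below background. Goblet genes were above background for 16 of 16, Paneth genes for 10 of 12, smooth muscle genes for 16 of 16, matrix genes for 20 of 21 and T and NK cell genes for 25 of 28. Of the neutrophil genes 4 of 17 passed, and S100a8 and S100a9, the abundant calprotectin subunits of neutrophils, stood at 3.62 and 3.93. Mast cell genes passed for 1 of 12, the stem cell factor receptor Kit, which other cells of the gut also carry. B and plasma cell genes passed for 8 of 16: the B cell markers Ms4a1 (CD20) and Cd79a stood at 4.42 and 4.94, below background, whereas Jchain, the plasma cell protein that joins IgA and IgM, averaged 7.84. Ifng stood at 5.49 and Il13 at 5.49, just over background, and Il22 (2.31), Il6 (3.10), Il17a (4.34), Il10 (3.70) and Il4 (3.77) were below it. The Y-linked genes Kdm5d, Uty and Eif2s3y were between 2.83 and 3.44 on all 6 arrays.

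Many interferon and antigen presentation genes were bright in every mouse. In the interferon gamma list 23 of 24 genes were above background and 15 were among the brightest 10%. Cxcl9, a chemokine for T cells that interferon gamma induces, stood at 11.26 ± 0.29, Irf1 at 9.97 ± 0.09 and Ido1, the tryptophan-degrading enzyme, at 9.68 ± 0.34. All 15 MHC class I genes were above background and 10 were among the brightest 10%. Of 16 MHC class II genes 14 were above background and 6 were among the brightest 10%. The bright class II genes included H2-Ab1 at 11.83 ± 0.18 and H2-Ea at 11.04 ± 0.12, and the median of that list was 8.23. H2-Ea is a gene that BALB/c mice express and C57BL/6 mice do not, and it was bright on all 6 arrays. No reference gut is analysed here, so none of these levels is called raised.

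Most genes differed little between the 6 mice, and any 2 arrays correlated at 0.989 to 0.993 over all probe sets. Above background the median SD was 0.14 log2 units and the median range, the highest minus the lowest array, was 0.37. The middle of the distribution, from the 25th to the 75th percentile, ran from 0.27 to 0.52. A range over 1 log2 unit, at least 2-fold between the extreme mice, was seen for 360 of 13807 probe sets above background (2.61%) and for 531 of all 21557 (2.46%). A range over 2 units was seen for 44 and one over 3 units for 24 of those above background. The share with a range over 1 was 2.45% for vehicle means from 5.22 to 7, 2.72% from 7 to 9 and 3.27% above 11, so it was of similar size at every brightness.

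**Figure D1:**
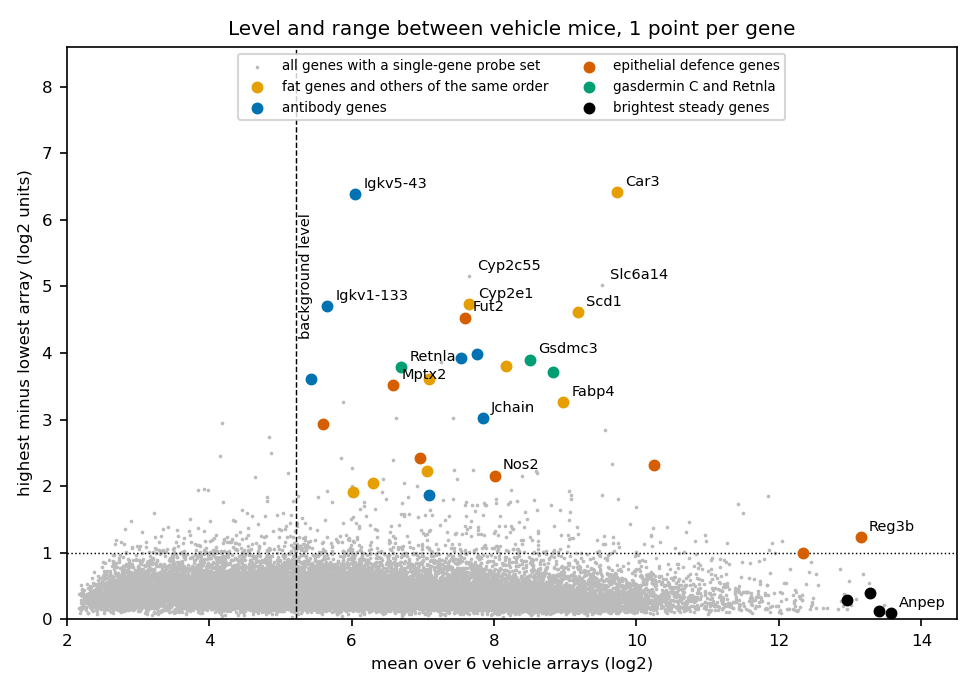
Each grey point is 1 gene, placed by its mean over the 6 vehicle arrays (log2, horizontal) and its range between them (highest minus lowest array, log2 units, vertical), with coloured groups named in the legend, the background level of 5.22 dashed and a range of 1 dotted. Most points lie under the dotted line, and Car3 (range 6.42) and Igkv5-43 (6.39) stand highest.

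The 24 genes with the largest ranges, from 3.02 to 6.42 log2 units or 8.11-fold to 85.9-fold, were few in kind. They held 6 immunoglobulin kappa variable segments with Jchain, the adipocyte genes Retn and Fabp4 together with Car3, Cyp2e1, Scd1 and Thrsp, the epithelial genes Fut2, Mptx2, Gsdmc2, Gsdmc3, Defa39, Slc6a14, Cyp2c55, Cyp2j13, Tat and Plb1, and the secreted protein gene Retnla. The mice did not rank alike over these groups, as the plot of list means by mouse shows. Against the median of the other 5 arrays, replicate 5 had the most probe sets over 1 unit away, 39 higher (0.265%) and 59 lower (0.401%) of 14727 examined, and replicate 2 the fewest in all, 21 (0.143%) and 12 (0.0815%). Of all probe sets above background 5.98% had 1 mouse set apart from the other 5 by Dixon's criterion, which compares the gap to the nearest mouse with the whole range. Without replicate 5 the count of 531 fell to 334, and among replicates 1 to 4 alone it was 238.

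**Figure D2:**
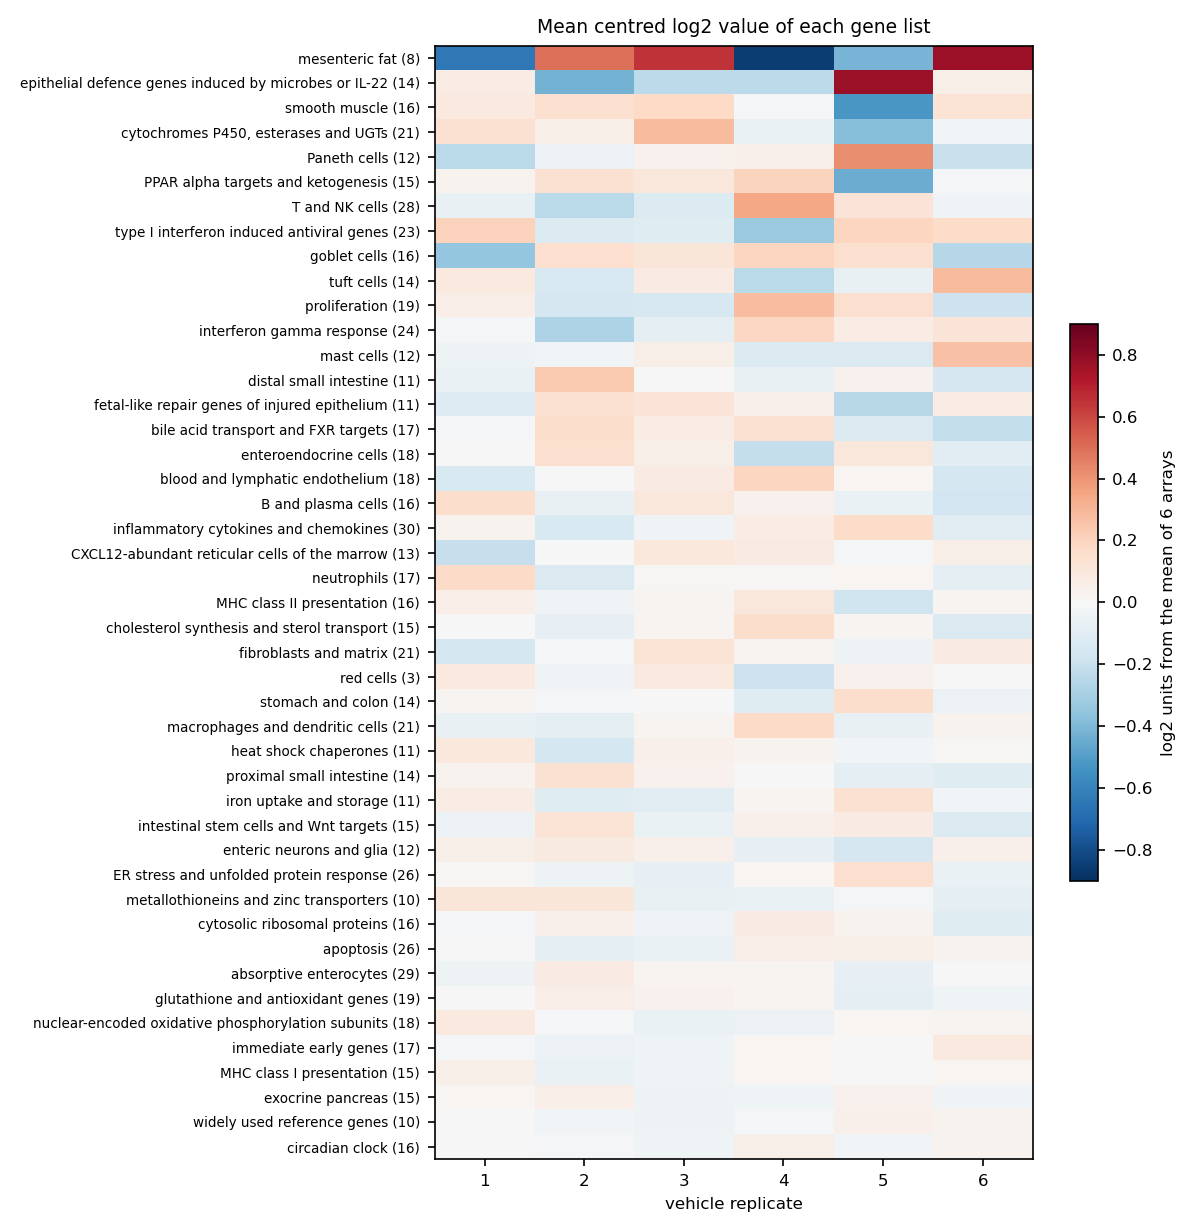
Each row is 1 of 45 gene lists, with the number of genes measured in brackets, and each column 1 vehicle mouse; colour gives the mean over the list of each gene's value minus its mean of the 6 arrays (log2 units, red higher, blue lower). The fat list spans -0.85 in replicate 4 to 0.77 in replicate 6, the epithelial defence list is highest in replicate 5 (0.78), and the lists at the foot are near 0 in all mice.

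Genes that varied between the mice differed from steady genes in the DNA before their start sites, in a comparison that was not planned beforehand. A TATA box, here the letters TATAAA on the coding strand with the first base 40 to 24 bases before the start, is where the TATA-binding protein docks at a minority of promoters, and CpG-rich promoters are typical of widely expressed genes. Among genes above background with a range up to 0.25, 21 of 2390 (0.879%) held the motif, and the share was 1.39% for ranges to 0.5, 2.81% for ranges to 1, 7.51% (16 of 213) for ranges to 2 and 12% (3 of 25) beyond 2. The median number of CpG in the 250 bases before the start went from 17 to 15, 11, 3 and 2 over the same steps. Over all 27025 genes of the RefSeq promoter table the motif's share was 2.16% and the median number of CpG was 6. Genes without a listed promoter are not in these shares. Promoters were listed for 2390 of 2906 genes with ranges up to 0.25, 213 of 316 from 1 to 2 and 25 of 44 beyond. None was listed for Car3, Scd1, Fut2, Fabp4 and the kappa variable segments, which are among the widest genes.

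The difference was there at each brightness. Among genes with means up to 7, 7.84% of those with a range over 1 and 1.85% of those with a range up to 0.5 held the motif, from 7 to 9 the shares were 9.09% and 0.671%, and above 9 they were 5.41% (2 of 37 genes) and 1.16%. With each mouse left out in turn the share among genes with a range over 1 lay between 6.76% and 9.56%, against 7.98% with all 6. These are descriptions of a fixed window and of genes that are not independent of each other: 238 of the genes with a range over 1 had a listed promoter, and relatives such as the P450 genes share ancestry.

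Of 25 genes with a range over 2 and a listed promoter, the 3 that held the motif in that window are printed with 2 of the 8 steadiest genes. Because the 3 were picked for the motif, they do not stand for variable promoters in general. Each line gives the 250 bases before the first listed start, 5′ to 3′ on the strand of the gene, from RefSeq on GRCm38.p6, with TATAAA in capitals. In Cyp2c55, Cyp2e1 and Retnla the motif begins 29, 31 and 30 bases before the start and the windows hold 0, 2 and 1 CpG, whereas the windows of Cux1 and Polg hold no TATAAA and 18 and 21 CpG. The positions are chr19:39006769-39007018 (plus strand) for Cyp2c55, chr7:140763569-140763818 (plus) for Cyp2e1, chr16:48842359-48842608 (plus) for Retnla, chr5:136565982-136566231 (minus) for Cux1 and chr7:79466274-79466523 (minus) for Polg.
Cyp2c55: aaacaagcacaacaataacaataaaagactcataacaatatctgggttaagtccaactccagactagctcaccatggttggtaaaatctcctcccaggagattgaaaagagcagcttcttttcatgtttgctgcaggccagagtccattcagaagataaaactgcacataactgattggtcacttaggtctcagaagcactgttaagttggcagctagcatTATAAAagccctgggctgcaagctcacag
Cyp2e1: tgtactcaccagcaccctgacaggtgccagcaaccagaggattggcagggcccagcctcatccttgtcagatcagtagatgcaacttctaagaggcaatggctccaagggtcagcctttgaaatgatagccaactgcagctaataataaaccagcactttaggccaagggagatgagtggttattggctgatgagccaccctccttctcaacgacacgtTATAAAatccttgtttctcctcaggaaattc
Retnla: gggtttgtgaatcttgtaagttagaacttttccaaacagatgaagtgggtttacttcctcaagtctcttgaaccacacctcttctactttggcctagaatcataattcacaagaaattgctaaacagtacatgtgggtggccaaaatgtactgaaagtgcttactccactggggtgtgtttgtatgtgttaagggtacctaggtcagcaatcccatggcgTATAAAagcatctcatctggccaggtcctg
Cux1: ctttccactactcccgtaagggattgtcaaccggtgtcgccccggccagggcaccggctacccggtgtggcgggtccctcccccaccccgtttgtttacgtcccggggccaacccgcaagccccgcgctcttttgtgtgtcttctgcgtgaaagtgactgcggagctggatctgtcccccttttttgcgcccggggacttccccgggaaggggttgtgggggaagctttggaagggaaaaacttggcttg
Polg: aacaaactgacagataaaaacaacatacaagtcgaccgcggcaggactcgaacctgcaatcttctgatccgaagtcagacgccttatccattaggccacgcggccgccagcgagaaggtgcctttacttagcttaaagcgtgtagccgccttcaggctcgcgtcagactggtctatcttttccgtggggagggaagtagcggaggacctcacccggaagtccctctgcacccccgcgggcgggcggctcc

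**Figure D3:**
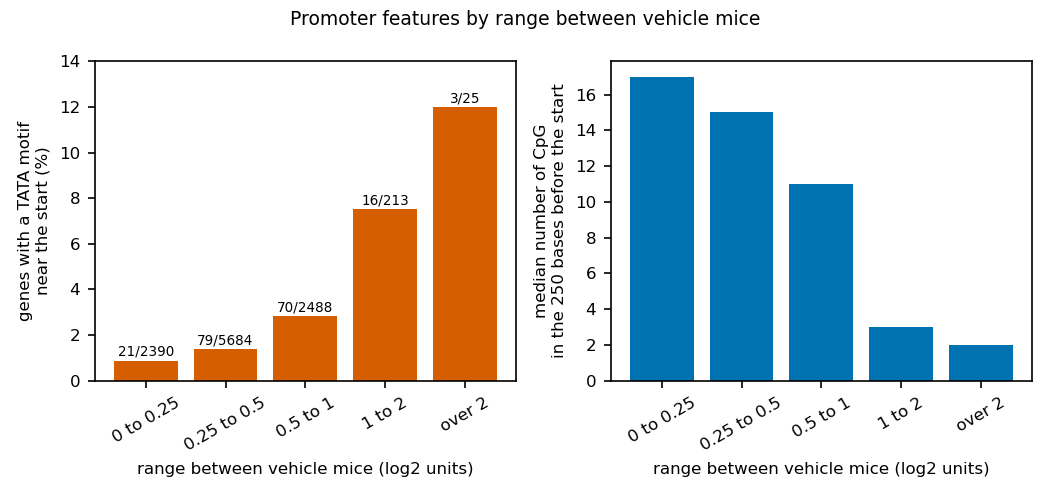
Left, the percentage of genes above background with a listed promoter that hold the TATA motif, by range between the vehicle mice (log2 units). The window is 40 to 24 bases before the start, and the number of genes is over the bars. Right, the median number of CpG in the 250 bases before the start for the same genes. The share goes from 0.879% in the steadiest genes to 12% (3 of 25) in those with a range over 2, and the number of CpG from 17 to 2.

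Of the 45 lists drawn, fat cell genes had the widest spread of list means between mice, from -0.85 to 0.77; their median range was 1.65. Of 8 measured genes of the mesenteric fat list 6 had a range over 1, against 2.61% of all probe sets above background, and the same 3 mice, replicates 2, 3 and 6, were high for Retn, Fabp4, Plin1, Adipoq and Cidec. Car3, a carbonic anhydrase of fat and muscle that is not on the list, was 8.27, 11.71, 11.73, 5.33, 9.55 and 11.76 in replicates 1 to 6. Replicates 2, 3 and 6 lay together at the top and replicate 4 was near the background level, an 85.9-fold spread. Retn, the adipocyte hormone resistin, was 6.54, 9.25, 10.03, 6.22, 7.53 and 9.47, and Fabp4, the fatty acid carrier of adipocytes, was 7.23, 10.01, 10.26, 7.22, 8.62 and 10.48. The order was again high in replicates 2, 3 and 6, intermediate in replicate 5 and low in replicates 1 and 4. Adipoq, the hormone adiponectin, was 5.08, 6.53, 6.75, 5.46, 5.32 and 6.99, so it was near background in 3 mice. Plin1, which coats the lipid droplet, ran from 5.06 to 7.10. Lep (leptin) was below background at 4.79 and Lipe, the hormone-sensitive lipase, had a range of 0.29.

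Some genes outside the list were singled out because they followed the same mice, so their order is no separate evidence. Scd1, which makes oleate from stearate, was 7.61, 10.82, 11.42, 6.81, 7.79 and 10.65 in replicates 1 to 6. Thrsp, a regulator of fatty acid synthesis, was 5.79, 8.0, 9.21, 5.60, 6.29 and 7.63, and Cyp2e1, an ethanol- and acetone-oxidising P450, was 6.38, 9.39, 8.53, 4.76, 7.39 and 9.49. In all 3 the lowest of replicates 2, 3 and 6 was above the highest of replicates 1, 4 and 5. The lipoprotein lipase gene Lpl ran from 5.93 in replicate 4 to 8.15 in replicate 6, the peroxisomal transporter gene Abcd2 from 4.63 to 7.05, and the malic enzyme gene Me1 from 8.29 to 10.21. Genes of fatty acid synthesis did not all follow this order. Fasn, the fatty acid synthase, did, at 9.27, 10.47, 10.96, 9.35, 9.58 and 10.33, whereas Acly, which supplies its acetyl-CoA, was 9.31, 9.78, 10.31, 9.58, 9.45 and 9.43 and Elovl6, which lengthens its product, was highest in replicate 5 at 10.54. How much fat lay on each piece of gut is not given in the labels, and its part in these values was not tested. The list kept at least 5 genes with a range over 1 with any 1 mouse left out.

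Antibody genes made up a large share of the widest differences. Of 19 measured genes of the immunoglobulin family, Jchain included, 14 had a range over 1, against 2.46% of all single-gene probe sets. Kappa variable segments are the V genes of the kappa light chain, one of which each B cell joins to a J segment. Of 12 measured, 10 had a range over 1. Vehicle means were above background for 11 of the 19 genes and 8 of the 12 segments. Some of the wide genes thus had means below background. Of the 14 wide genes 8 were highest in replicate 1 and 8 were lowest in replicate 6. Relatives among these segments are alike in sequence, so 1 probe set may read more than 1 of them. The heavy and light chain constant genes other than Ighm and Ighg3 had no probe set of their own and are not analysed here.

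The segments did not rank the mice alike. Igkv9-120 was 9.27, 8.97, 9.03 and 8.65 in replicates 1 to 4 and 5.35 and 5.29 in replicates 5 and 6. Igkv5-43 was 6.83, 6.00, 9.62, 7.17, 3.24 and 3.48, an 83.7-fold spread with replicate 3 on top and replicates 5 and 6 below background. Igkv4-72 was 9.95, 6.95, 7.86, 8.09, 6.02 and 6.38, with replicate 1 alone near 10. Igkv1-133 went another way, at 5.39, 4.52, 7.22, 3.99, 4.15 and 8.69, and was highest in replicate 6, where 7 of the 10 wide segments were lowest. Igkv8-30 reached 7.69 in replicate 3 and was below background in replicates 2, 5 and 6. Of the 10 wide segments 5 were highest in replicate 1, 3 in replicate 3 and 1 each in replicates 2 and 6. Jchain, carried by plasma cells whatever their segment, was 9.23, 7.87, 9.01, 8.04, 6.21 and 6.68, and Ighm, the heavy chain of IgM, was 7.90, 6.93, 7.26, 7.61, 6.79 and 6.04. Replicates 5 and 6 were the lowest for both. The transcription factor genes Xbp1 and Prdm1, which plasma cells and epithelium both use, had ranges of 0.66 and 0.58.

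**Figure D4:**
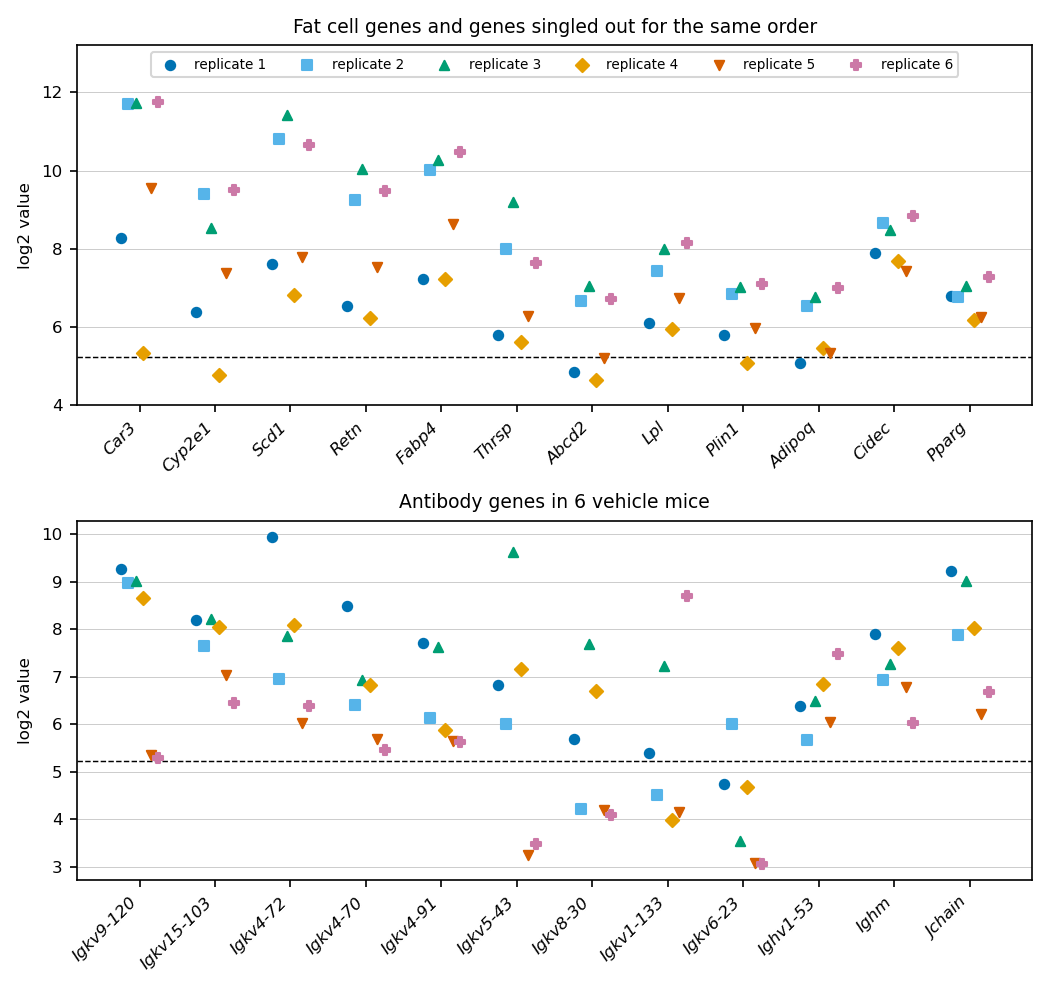
Log2 values of 12 genes of fat cells or singled out for the same order (top) and 12 antibody genes (bottom) in the 6 vehicle mice, 1 symbol per mouse, with the background level of 5.22 dashed. Replicates 2, 3 and 6 lie above the other mice for Car3, Scd1, Retn and Fabp4, and replicates 5 and 6 lie at 5.35 and 5.29 for Igkv9-120, under the other 4.

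The 2 ranges of sample numbers were compared because the labels do not say what they stand for. With limma over all 23991 probe sets, replicates 5 and 6 (the high numbers) against replicates 1 to 4 (57 to 60) gave 3 probe sets lower (0.0125%) and 0 higher at an adjusted p of 0.05, and 1914 had an unadjusted p under 0.05. Igkv9-120 was the 1 named gene, lower by 3.66 ± 0.15 log2 units (SE, adjusted p = 2.06e-05 by limma). The other 2 probe sets called name no gene and were lower by 2.21 and 1.5. The 2 number ranges did not overlap for 17.3% of single-gene probe sets. With 2 arrays against 4, chance alone often leaves no overlap, so this share is not read as a difference between the ranges. Igkv15-103, with 8.19, 7.66, 8.21 and 8.05 in replicates 1 to 4 against 7.05 and 6.45, and Fbp1, the gluconeogenic fructose bisphosphatase, with 7.18, 7.41, 7.35 and 7.69 against 6.13 and 6.40, did not pass the test. Without replicate 6 the comparison rests on replicate 5 as the lone member of its range and gave 24 probe sets, without replicate 3 it gave 6, without replicate 2 it gave 5, and the number range cannot be told apart from any difference between these particular mice.

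Replicate 5 stood out by genes of epithelial defence. Of 14 measured genes known to be induced by microbes or interleukin 22, 7 had a range over 1, against 2.46% of all single-gene probe sets. The list mean was 0.78 above its average in replicate 5 and between -0.42 and 0.07 in the other 5. Fut2, the fucosyltransferase that decorates the epithelial surface, was 7.50, 6.09, 6.67, 6.22, 10.63 and 8.41, a 23.1-fold spread. Retnlb, the goblet cell protein RELM-beta, was 5.62, 4.27, 5.31, 4.69, 7.21 and 6.46, and Il18, an epithelial cytokine, was 7.06, 6.64, 6.59, 6.33, 8.76 and 6.41. Replicate 5 was highest for all 3, and replicate 6 came next for Fut2 and Retnlb but not for Il18. Nos2, which makes nitric oxide, was 7.96, 7.60, 7.50, 8.42, 9.37 and 7.21. The lectins Reg3b and Reg3g, which act on bacteria at the mucus, were bright in every mouse and highest in replicate 5, at 13.84 against 12.60 to 13.49 and at 12.92 against 11.93 to 12.67. Saa3 did not single out replicate 5, with 8.78 there and 8.74 in replicate 1. Mptx2, a pentraxin of Paneth cells, was 9.26 in replicate 5 and 5.74 to 7.0 elsewhere, Dmbt1, a mucosal scavenger protein, was 11.65 against 9.33 to 10.43, and Tat, tyrosine aminotransferase, was 9.67 against 5.81 to 7.53. Il22 itself was below background in all 6 mice.

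Paneth cell genes were highest in the same mouse. Of 12 measured genes 5 had a range over 1, against 2.46% of all single-gene probe sets. Lyz1, the lysozyme of Paneth cells, was 11.11, 11.33, 11.40, 12.02, 12.22 and 10.49, and Pla2g2a, a secreted phospholipase, was 10.67, 10.43, 10.59, 10.89, 11.65 and 10.19. Of 9 measured alpha-defensin genes, whose near-identical copies can share signal, 5 had a range over 1, all 5 were highest in replicate 5 and 4 were lowest in replicate 6. Defa39 was 8.29, 8.84, 8.16, 8.55, 10.02 and 6.83, and Defa35 was 12.32 in replicate 5 and 10.73 in replicate 6. Replicate 6 was thus the low end for lysozyme and most defensins, yet for Ang4, a ribonuclease of the same cells, it came next at 9.32 behind 9.50 in replicate 5. Without replicate 5 the number of Paneth genes with a range over 1 was 3, and without replicate 6 it was 3.

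**Figure D5:**
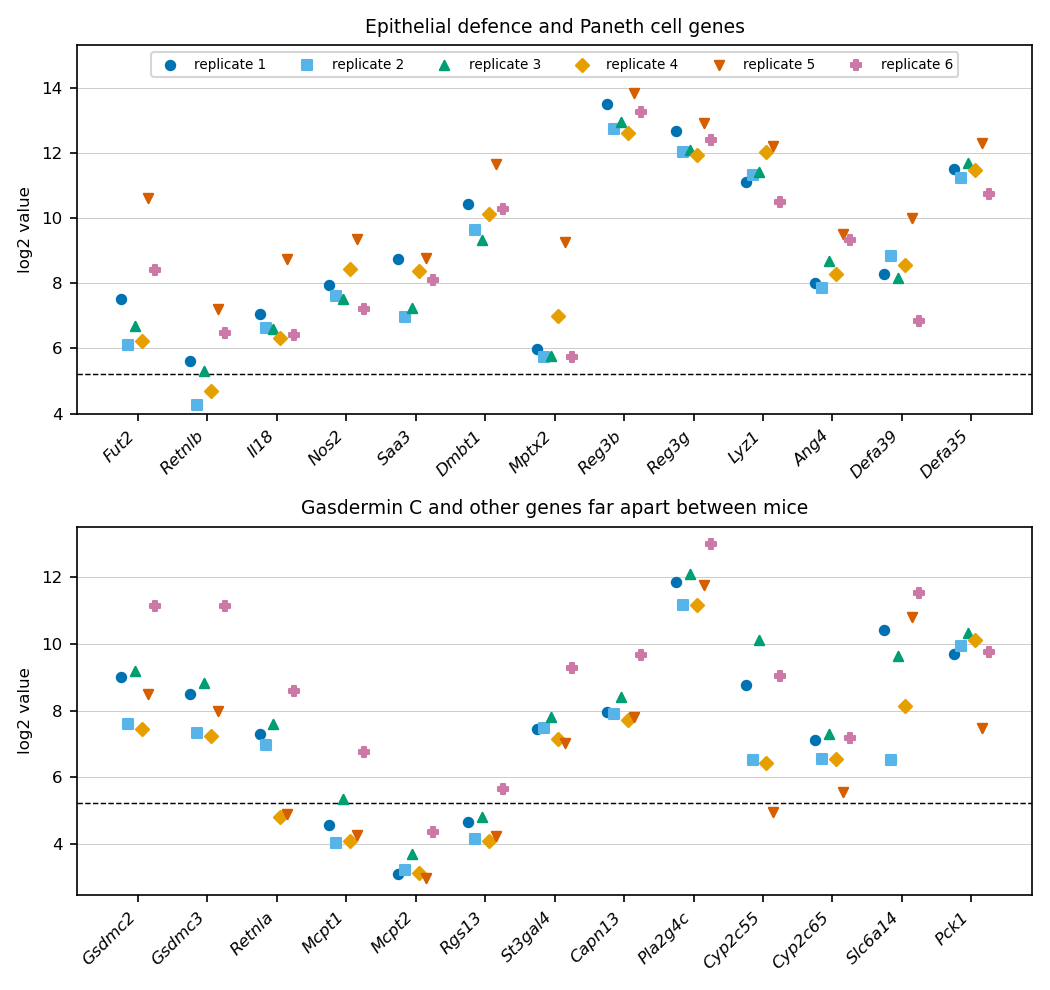
Log2 values of 13 epithelial defence and Paneth cell genes (top) and of 13 other genes with wide or single-mouse differences (bottom) in the 6 vehicle mice, 1 symbol per mouse, with the background level of 5.22 dashed. Replicate 5 is highest for Fut2 (10.63), Il18 (8.76) and Mptx2 (9.26) and lowest for Pck1 (7.48), and replicate 6 is highest for Gsdmc2 (11.16) and Gsdmc3 (11.14).

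Muscle and fasting genes were lowest in replicate 5. The smooth muscle list was 0.53 below its average there and between -0.01 and 0.18 in the other mice. Des (desmin) was 9.93 against 10.89 to 11.10, Cnn1 (calponin) was 10.44 against 11.37 to 11.59 and Acta2 (smooth muscle actin) was 11.92 against 12.38 to 12.62. These 3 mark the muscle coat. Of 16 genes of the list 4 had a range over 1, against 2.61% of all probe sets above background, and 0 did without replicate 5. The lower muscle values came with the higher defence and Paneth cell values of that mouse, and their part in those values was not tested. The enterocyte list was 0.08 below its average in the same mouse, lower than in any other. Among genes that PPAR alpha and fasting induce, Pck1, the entry enzyme of gluconeogenesis, was 9.69, 9.94, 10.33, 10.13, 7.48 and 9.77, a 7.18-fold spread with replicate 5 alone below. Angptl4, an inhibitor of lipoprotein lipase, was 6.31 in replicate 5 against 7.15 to 8.11, and G6pc, the last enzyme of glucose release, was 7.46 against 8.36 to 8.97. Cpt1a, the gate of mitochondrial fatty acid oxidation, had a range of 0.53. Slc40a1, the iron exporter ferroportin, ran the other way at 9.13 in replicate 5 and 7.41 to 7.98 elsewhere.

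Replicate 6 stood out by gasdermin C genes. Gasdermins are pore-forming proteins, and the gasdermin C genes are known to be induced in gut epithelium by type 2 cytokines. Gsdmc2 was 9.0, 7.60, 9.21, 7.45, 8.52 and 11.16, and Gsdmc3 was 8.50, 7.33, 8.85, 7.24, 7.99 and 11.14. Replicate 6 was highest, replicates 2 and 4 were lowest, and the 2 genes gave nearly the same order, as close relatives whose probes may overlap could. Of 6 measured gasdermin C genes 4 had a range over 1, against 2.46% of all single-gene probe sets. Of these 4, 3 were highest in replicate 6 and Gsdmcl2 was highest in replicate 5 at 6.74. Retnla, RELM-alpha, another protein that type 2 cytokines induce, was 7.31, 6.97, 7.60, 4.80, 4.91 and 8.59, with replicates 4 and 5 below background.

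No list of type 2 cytokine targets was fixed, and the genes that follow were in part picked for being high in replicate 6. Of 12 mast cell genes 4 were highest in replicate 6 and 4 in replicate 2, of 14 tuft cell genes 9 were highest in replicate 6, and of 16 goblet genes 0 were. Mcpt1, the protease of mucosal mast cells, was 6.77 there and 4.02 to 5.35 in the other mice, so it was over background in replicates 3 and 6 alone. Mcpt2 and Cpa3, also mast cell proteases, stayed below background at 4.36 and 4.01 in replicate 6. The tuft cell list was 0.28 above its average in replicate 6, with Rgs13 at 5.65 against 4.09 to 4.82 and Sh2d6 at 6.12 against 5.26 to 5.51, while the tuft cytokine gene Il25 had a range of 0.23. Among genes singled out after their values were seen, the sialyltransferase gene St3gal4 was 9.27 against 7.02 to 7.82, the calpain gene Capn13 was 9.66 against 7.71 to 8.40, the phospholipase gene Pla2g4c was 13.02 against 11.16 to 12.10 and the chemokine gene Ccl17 was 6.94 against 5.02 to 5.73. The cytokine genes Il13 and Il4 were 5.27 and 4.00 in replicate 6, against means of 5.49 and 3.77, and their ranges between the mice were 0.46 and 0.48.

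T cell genes and proliferation genes were highest in replicate 4. The T and NK cell list was 0.35 above its average there and -0.24 in replicate 2. Cd4 was 6.29, 5.90, 6.20, 7.49, 7.47 and 6.77, high in replicates 4 and 5, and Cd3g, a chain of the T cell receptor complex, was 8.09, 7.96, 8.31, 8.86, 8.46 and 8.14. The cytotoxic granule genes did not follow Cd3g in full, since Gzmb (granzyme B) was 7.82, 7.26, 7.86, 8.49, 9.0 and 7.70 and Gzma was highest in replicate 5 at 9.22. Of 28 measured genes 5 had a range over 1, against 2.46% of all single-gene probe sets. Without replicate 2 or without replicate 4, 3 did. Ccl5, a chemokine of activated T cells, was 10.60 in replicate 4 and 9.61 to 10.14 elsewhere. The proliferation list, none of whose 19 genes had a range over 1, was 0.28 above its average in replicate 4, with Mki67 at 10.45 against 9.84 to 10.39.

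The 2 interferon lists ranked the mice differently. The interferon gamma list was 0.19 above its average in replicate 4 and 0.28 below in replicate 2, whereas the type I list was lowest in replicate 4 at -0.33 and highest in replicate 1 at 0.21. Oas2, a sensor of double-stranded RNA, was 8.61, 8.26, 8.23, 7.29, 8.65 and 8.56, and Isg15, a ubiquitin-like protein, was 8.93, 8.53, 8.45, 7.90, 9.07 and 8.85. Both were lowest in replicate 4. Of 23 type I genes 3 had a range over 1, against 2.61% of all probe sets above background, and 0 did without replicate 4. Gbp7, a guanylate binding protein of the interferon gamma list, was instead highest there at 10.49 against 9.49 to 10.30, as was Cd274 (PD-L1) at 8.35 against 7.38 to 8.16. MHC class I genes were steadier than most, with a median range of 0.28 against 0.37 for all probe sets above background, and class II genes were not, at 0.41. None of 15 class I genes and 1 of 16 class II genes, H2-DMb2 (0 without replicate 5), had a range over 1, and B2m lay between 13.35 and 13.47. Replicate 4 was also alone in 2 genes singled out after their values were seen, the nuclease gene Dnase1 at 9.08 against 6.98 to 7.52 and the P450 gene Cyp2j13 at 7.81 against 4.55 to 5.80.

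Genes for drug metabolism and transport held some of the widest single differences. Cyp2c55, a gut P450 that nuclear receptors for foreign compounds induce, was 8.77, 6.54, 10.13, 6.43, 4.97 and 9.04, a 35.6-fold spread that ran from below background in replicate 5 to 10.13 in replicate 3. Its relative Cyp2c65 was 7.12, 6.54, 7.30, 6.55, 5.55 and 7.19, the same 3 mice high and the same mouse lowest. Of 21 measured P450, esterase and glucuronosyltransferase genes 5 had a range over 1, against 2.46% of all single-gene probe sets. Among them were Cyp2d26 with 9.54 in replicate 2 and 7.35 in replicate 5 and Cyp3a25 with 4.92 to 6.91. Slc6a14, an importer of neutral and cationic amino acids, was 10.43, 6.52, 9.64, 8.16, 10.83 and 11.54, a 32.4-fold spread in which replicates 2 and 4 were low. Plb1, a brush border phospholipase, was 6.34, 8.89, 8.39, 7.09, 7.96 and 5.87.

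Of 17 measured bile acid genes 5 had a range over 1, against 2.46% of all single-gene probe sets. The 5 were Fgf15, Cyp3a25, Cyp3a11, Abcc2 and Nr0b2. Fgf15, the hormone that the ileum releases when bile acids activate FXR, was 8.54, 10.88, 8.72, 10.38, 10.12 and 9.30, high in replicates 2, 4 and 5. Nr0b2, the repressor SHP and another FXR target, was 6.13, 6.99, 6.68, 7.17, 6.15 and 6.19, so replicate 5 was low for it and high for Fgf15. The FXR gene itself, Nr1h4, had a range of 0.56, Slc10a2 of 0.38 and Slc51a, a subunit of the basolateral exporter, of 0.67. Enpp7, which digests sphingomyelin in the distal gut, ran from 8.86 in replicate 5 to 10.66 in replicate 4.

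Goblet and hormone cell genes had median ranges of 0.77 and 0.72. The goblet list was 0.34 below its average in replicate 1 and 0.25 below in replicate 6. Of its 16 genes 2 had a range over 1, against 2.61% of all probe sets above background. This count became 0 without replicate 1 and 1 without replicate 5. Fcgbp, a mucus protein, was 11.30 in replicate 1 and 11.67 to 12.29 elsewhere, and Muc2, the gel-forming mucin, was 12.54 and 12.46 in replicates 1 and 6 and 12.93 to 13.21 in the others. Replicates 1 and 6 thus held the 2 lowest values of Muc2, as they did of the list mean that Muc2 is part of. Among the hormone genes Sst (somatostatin) was 8.25, Pyy 7.88 and Nts (neurotensin) 8.54 in replicate 4, each lower than in any other mouse, while Gcg, the gene of GLP-1, was 9.34 in replicate 5 and 8.34 to 8.66 elsewhere.

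Genes of core cell functions had smaller ranges than most. Median ranges were 0.24 for 18 subunits of oxidative phosphorylation, 0.28 for 15 MHC class I genes, 0.31 for 16 ribosomal protein genes, 0.32 for 10 reference genes and 0.35 for 29 enterocyte genes, against 0.37 for all probe sets above background. Brighter probe sets had smaller median ranges: 0.41 for means of 5.22 to 7, 0.35 to 9, 0.32 to 11 and 0.30 above. The enterocyte list, with a median level of 11.86, was thus wider than probe sets of its brightness. The reference list, at 8.99, was near those of its own. The oxidative phosphorylation (9.46), class I (9.67) and ribosomal (6.63) lists were below theirs. Several other lists held no gene with a range over 1, which at a background of 2.61% says little for lists of this size. Their median ranges were 0.38 for 26 apoptosis genes, 0.39 for 15 cholesterol genes, 0.40 for 16 clock genes and 0.41 for 17 immediate early genes. They were 0.43 for 15 genes of stem cells and Wnt signalling, 0.44 for 11 heat shock genes and 0.47 for 18 endothelial genes. For 26 genes of endoplasmic reticulum stress the value was 0.47, for 19 proliferation genes 0.61 and for 11 genes of fetal-like repair 0.75. Red cell and sex-linked genes, 3 measured in each list, had 0.35 and 0.27. Lgr5, the receptor that marks crypt base stem cells, had a range of 0.64 and Olfm4, another marker of the same cells, of 0.75. The clock genes Arntl and Per1 had small SDs, with Arntl at 9.13 ± 0.12 and Per1 at 7.47 ± 0.14. The 8 steadiest genes, Cux1, Enkd1, Prex1, Maip1, Ift43, Polg, Edem3 and Aff1, had ranges of 0.04 to 0.06.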

How the data were processed

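Small intestine RNA of 6 vehicle mice was labelled with the Affymetrix WT Pico kit, per the labels' protocols. What the authors deposited is 1 log2 value for each array and probe set. Oligo and RMA (background correction, quantile normalization, probe summary) are named, without versions, in the submitters' processing notes. RMA makes the arrays' distributions alike, so a shift of all transcripts would not be seen. The values are brightness, and the 6 arrays limit the precision.

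Gene names came from the platform annotation, in which 21557 probe sets named 1 gene, 787 several and 1647 none. Of 832 genes in 46 lists 712 were measured, and for the 148 genes with several probe sets the brightest was used (7 of these disagreed on a range over 1). The number ranges were compared with limma 3.58.1 (R 4.3.3; trended eBayes, Benjamini-Hochberg over 23991 probe sets, two-sided), tested on simulated data. Its p-values measure the spread between these arrays. Members and lists were chosen with earlier results of these data known. Genes were named by rule: the 24 widest, the 12 brightest, the 8 steadiest, 4 high and 4 low per array, the first 4 and 3 widest members of each list and the number range calls; others are said to be chosen after their values were seen, and the ranges of further list members are given as values. Promoters came from RefSeq (GRCm38.p6).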

Additional observations from a re-analysis of the deposited data

Results flagged for a closer look

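Among 154 genes and 21 lists whose values were looked at, 17 genes and 3 list means had 1 mouse set apart from the other 5, by the same criterion of Dixon, a gap to the nearest mouse that is large against the whole range. Chance flags about 1 in 20 such groups, and 5.98% of all probe sets above background met the same measure. The genes were named in part for wide ranges or for 1 high or low mouse, so their number set apart is not to be read against those shares. Replicate 5 was the mouse apart in 11 of these results, replicates 4 and 6 in 4 each and replicate 1 in 1.

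In replicate 5 the muscle genes Acta2, Cnn1 and Des were low at 11.92, 10.44 and 9.93, and the smooth muscle list stood at -0.53 against -0.01 to 0.18 in the other mice. Abcc2 and Pck1 were low there at 7.47 and 7.48, and the list of PPAR alpha targets stood at -0.45 against -0.02 to 0.20. Il18 (8.76), Mptx2 (9.26), Gcg (9.34) and Slc40a1 (9.13) were high in the same mouse, and without it the ranges of Il18 and Slc40a1 were 0.73 and 0.56.

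In replicate 4 Dnase1 was high at 9.08, and Oas2 (7.29), Nts (8.54) and Pyy (7.88) were low. In replicate 6 St3gal4 (9.27), Capn13 (9.66), Ccl17 (6.94) and Sh2d6 (6.12) were high. In replicate 1 the list of marrow reticular cell genes was low, at -0.21 against -0.02 to 0.09.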

How the results depend on the processing

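The 6 arrays limit what a range can show, since a range grows with the number of mice. With 1 mouse left out in turn, the count of probe sets with a range over 1 (531) lay between 334 and 469, the lower value without replicate 5, and it was 238 in the low sample numbers alone. The count above background (13807) lay between 13655 and 13891, and the number range calls (3) between 2 and 24, the upper value without replicate 6, where 11 were higher and 13 lower; a lone array is then assumed to vary like the others. Without the variance trend 1 probe set was called, Igkv9-120, which passed in every setting (adjusted p up to 0.00105). The promoter comparison was not planned, and its alternatives too were chosen after seeing the data. The share of wide genes with TATAAA lay between 6.76% and 9.56% with 1 mouse left out. It was 8.40% for any start site and 12.2% for the whole window (4.50% among genes with a range up to 1). Of 154 named genes, 145 kept their range to within 1 SD under renewed quantile normalization, 128 without replicate 5 and 95 among the low sample numbers alone. The steady genes Aff1, Anpep and B2m did not keep theirs under renewed quantile normalization. Their ranges went from 0.06, 0.09 and 0.12 to 0.12, 0.16 and 0.21. Of 46 list counts 37 stayed within 1.5 times without replicate 5. No paired analysis was possible because the 2 number ranges share no replicate number and the other results come from no test. The cause of these shifts was not tested.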

Other observations

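Some values fall under none of the groups above. Among the inflammatory cytokine and chemokine genes 6 of 30 had a range over 1, against 2.46% of all single-gene probe sets. Without replicate 2 or without replicate 5, 2 did. Ccl3, a chemokine for macrophages and T cells, was 7.79, 7.46, 7.68, 8.65, 7.18 and 7.32 in replicates 1 to 6, highest in replicate 4. Ccl8 was 7.40 and 7.29 in replicates 1 and 2, 7.62 in replicate 6 and 8.21 to 8.40 in the other 3. Ly6c2, which marks monocytes and some T cells, was 7.43 in replicate 4 and 5.88 in replicate 2. Bmp4, a crypt-to-villus signal from fibroblasts, was 7.39, 7.48, 7.73, 8.68, 8.56 and 8.11, the 1 wide gene among 21 matrix genes. Mt2, a zinc binding metallothionein, was 11.12 in replicate 2 and 9.74 in replicate 5, whereas Mt1 had a range of 0.53.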
